A study of Mus musculus with 103 samples.

Results

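The tumours described here are 5 large intestinal adenomas and 7 gastric adenomas of mice, 12 of the 103 samples of the series. Samples were assigned by the tissue named in the labels, with no measured value used. The comparison and the gene lists were chosen with earlier results of these data known. An adenoma is a benign tumour of gland-forming epithelium. The study followed and mutated cells that express Prom1, the gene of the membrane protein Prominin1, in many mouse organs. The labels of all 12 samples describe a dissected primary tumour whose total RNA was extracted with the same column kit. Genotype, strain, age, sex, treatment and batch of the animals are not stated. Whether each tumour is from an animal of its own is also unstated, so the p-values below reflect the spread between these samples, which may be technical. Nor do the labels say which oncogenic alleles the tumours of either organ carried, so a difference of organ and a difference of alleles cannot be told apart. Samples are numbered in the order of their accessions. The number in the sample title was higher in every large intestinal adenoma than in any gastric adenoma, so anything that changed with that number cannot be told apart from the organ.

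As background, the gut tube is patterned along its length by transcription factors. Cdx1, Cdx2 and the posterior Hox genes mark the intestine, and Sox2, Nkx6-3 and Gata4 are used in the stomach. Colon epithelium holds absorptive colonocytes, which move salt and water, goblet cells, which secrete mucus, and hormone-producing endocrine cells. The glandular stomach is lined by surface mucous cells that secrete gastrokines, trefoil peptides and the mucin Muc5ac, and its glands hold acid-secreting parietal cells and enzyme-secreting chief cells.

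Each sample was hybridised to 1 Affymetrix mouse expression array. Levels are the deposited values on the log2 scale, on which a difference of 1 is a doubling, and differences are always large intestinal minus gastric adenoma, given with the standard error of the limma fit. Of 17097 genes with a probe set of their own, 10918 were tested because their mean exceeded 4.09, the 40th percentile of all values, in at least 1 of the groups. A gene was called at a Benjamini-Hochberg adjusted p under 0.05 and a difference of at least 1. In all, 1543 genes were called (14.1% of those tested), 841 of them higher (7.70%) and 702 lower (6.43%) in large intestinal adenoma. Every large intestinal adenoma lay above every gastric adenoma for 785 genes (7.19%) and below every one for 903 (8.27%). The median difference over all tested genes was -0.00. Pearson correlations of arrays ran from 0.962 to 0.981 among large intestinal adenomas, from 0.938 to 0.987 among gastric adenomas and from 0.918 to 0.943 between the groups. The 3′ minus 5′ difference of the actin control probe sets, which grows with RNA degradation, averaged 0.592 ± 0.0893 in large intestinal adenomas and 0.696 ± 0.112 in gastric adenomas (SD, n = 5 and 7, two-sided exact permutation p = 0.111 over every split). That of Gapdh averaged 0.385 ± 0.138 in large intestinal adenomas and 0.505 ± 0.191 in gastric adenomas (exact permutation p = 0.255). A level under 4.09 is called background below, and a difference against a group whose mean lies there is a lower bound. A gene whose mean lay at background in 1 group was tested only through the other, so it could be called in 1 direction only. Counts of lists with many such genes are in part set by this filter. Every list count below stands against the shares of 7.70% higher and 6.43% lower over all tested genes. RNA of a whole tumour was measured, so fewer cells of a type and less RNA per cell cannot be told apart.

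Of the large intestinal adenomas, sample 1 was the highest of its group for 198 of the 702 genes called lower (28.2%), against 17.2% of all tested genes. Sample 5 was the highest for 182 of them (25.9%), against 21.3% of all tested genes. Sample 1 did not stand apart over the whole array: its mean correlation with the others of its group was 0.971, and that of sample 5, the lowest of the 5, was 0.965. Gastric adenoma 4 was the highest gastric sample for 272 of the 841 genes called higher in large intestinal adenoma (32.3%), against 21.9% of all tested genes, and its mean correlation with its own group, 0.953, was the lowest of the 7. Its actin 3′ minus 5′ difference, 0.902, was the highest of the 12 arrays, with 0.734 in gastric adenoma 5 next. Its Gapdh difference, 0.731, was just under the highest, 0.733 in gastric adenoma 5. The part of RNA quality in the values of gastric adenoma 4 was not tested. With large intestinal adenoma 1 and gastric adenoma 4 both left out, 1564 genes were called, and 1366 of these were called with all 12 samples too. This setting was added after the data were seen. Calls of described genes that it changed are given beside them, and the counts of gene lists that it changed stand beside the list or in the closing part on processing.

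The genes that rose most in large intestinal adenoma included products of colonocytes and of mucus-secreting cells. Guca2a, the gene of guanylin, a peptide that regulates salt and water secretion, read 12.2, 12.99, 12.73, 12.11 and 13.09 in the large intestinal adenomas. Its gastric values lay between 3.02 and 6.69 with a median of 3.15. The groups did not overlap, and the difference was 8.9 ± 0.56 (adjusted p = 2.7e-07). Only gastric adenoma 4, the highest gastric sample, rose above background. Car1, a cytosolic carbonic anhydrase of colonocytes, read 7.59, 13.91, 13.17, 10.14 and 13.62 in large intestinal adenomas and 2.82 to 3.47 in gastric adenomas, a difference of 8.58 ± 0.91 (adjusted p = 2.6e-05). Its level was at background in all 7 gastric adenomas, while the large intestinal samples varied widely, with samples 1 and 4 lowest. Retnlb, the gene of a goblet cell peptide, read 10.12, 12.34, 10.9, 12.22 and 11.79 in large intestinal adenomas. In gastric adenomas its values lay between 2.68 and 4.91 with a median of 3.18, and the groups did not overlap (8.04 ± 0.45, adjusted p = 7.6e-08). Reg4, a lectin gene of deep crypt secretory cells, read 12.06, 12.02, 11.16, 12.31 and 9.34 in large intestinal adenomas and 2.69 to 6.93 in gastric adenomas (7.84 ± 0.73, adjusted p = 9.3e-06), with sample 5 lowest in the first group and sample 4 highest in the second. Zg16, a goblet cell lectin that binds bacteria, was even across large intestinal adenomas at 12.52 to 13.09 and uneven across gastric adenomas at 3.02 to 10.86 (7.0 ± 1.13, adjusted p = 0.00063).

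The other genes among the 12 largest increases were 2610528A11Rik (8.49 ± 0.32), Clca4a (8.15 ± 0.36), Tmigd1 (7.3 ± 0.36), Mgat4c (7.3 ± 0.28), Clec2h (7.17 ± 0.92), 1810065E05Rik (6.77 ± 0.91) and 9130208D14Rik (6.31 ± 0.32). Clca4a belongs to a family of regulators of calcium-activated chloride channels. Tmigd1 encodes an adhesion protein of the brush border, and Mgat4c an enzyme that branches N-glycans. Mgat4c read 9.21 to 11.14 in large intestinal adenomas and 2.68 to 3.1 in gastric adenomas, with no overlap. Clec2h, a C-type lectin gene, read 8.92 in gastric adenoma 4, and no other gastric sample exceeded 4.16. For 1810065E05Rik the large intestinal samples read 6.27, 12.16, 9.75, 7.39 and 12.34, high in samples 2 and 5 and low in samples 1 and 4, as for Car1.

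**Figure D1:**
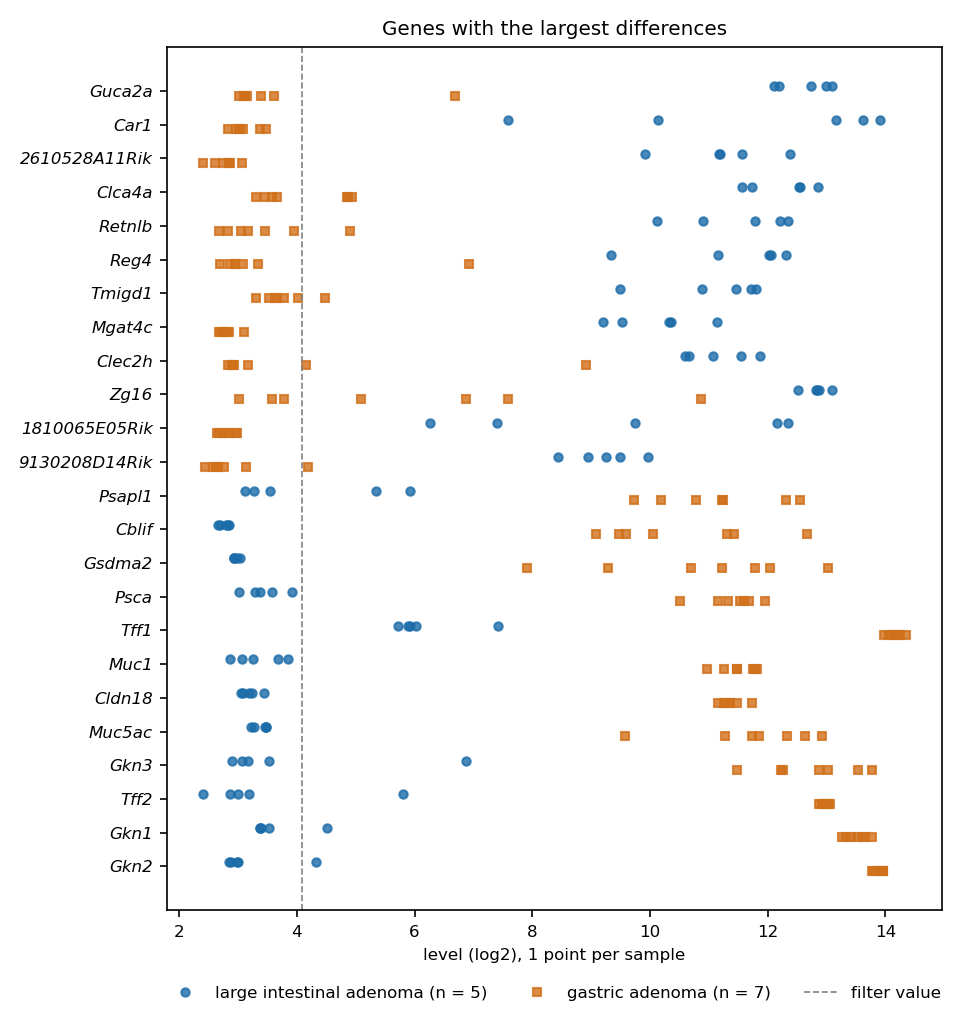
Levels (log2, horizontal axis) of the 12 genes with the largest increases (upper rows) and the 12 with the largest decreases (lower rows), 1 point per sample, circles for large intestinal adenoma (n = 5) above squares for gastric adenoma (n = 7). The dashed line is the filter value of 4.09. The groups do not overlap in any row, and most of the low samples lie left of the line.

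The genes that fell most included those of gastric surface mucous cells. Gkn2, the gene of gastrokine 2, a peptide secreted with gastric mucus, read 4.32, 2.89, 2.85, 3.0 and 2.99 in large intestinal adenomas. Its values in gastric adenomas lay between 13.78 and 13.97 with a median of 13.94, and the difference was -10.69 ± 0.22 (adjusted p = 2.6e-12). Gkn1, its neighbour, read 4.52, 3.38, 3.38, 3.52 and 3.39 in large intestinal adenomas and 13.26 to 13.77 in gastric adenomas (-9.87 ± 0.19, adjusted p = 1.9e-12). Gkn3, the third gastrokine gene, read 6.88, 3.17, 3.06, 3.52 and 2.9 in large intestinal adenomas and 11.49 to 13.78 in gastric adenomas (-8.84 ± 0.64, adjusted p = 1e-06). All 3 genes were at or near background in large intestinal adenomas 2 to 5 and above it in sample 1. Gkn1, Gkn2 and Gkn3 are next to each other on chromosome 6 in RefSeq. Their promoters are shown because these adjacent genes fell together. Each runs from 250 bases before to 50 after the gene's start, 5′ to 3′ on the gene's strand, in GRCm38.p6 from RefSeq. Capitals mark matches to 3 motifs on either strand. AGATAA is the motif of GATA-type factors. TTTATG is that of CDX-type factors, and GTTAAT is a half-site of HNF1-type factors. No motif contains another. Gkn1 lies on the minus strand (chr6:87350866-87351165), Gkn2 on the plus strand (chr6:87373115-87373414) and Gkn3 on the minus strand (chr6:87388886-87389185).
Gkn1: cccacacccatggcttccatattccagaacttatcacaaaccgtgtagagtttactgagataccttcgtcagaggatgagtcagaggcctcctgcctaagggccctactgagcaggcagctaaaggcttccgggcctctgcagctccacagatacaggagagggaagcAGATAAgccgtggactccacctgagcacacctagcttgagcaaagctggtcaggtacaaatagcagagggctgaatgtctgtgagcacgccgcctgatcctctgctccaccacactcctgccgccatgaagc
Gkn2: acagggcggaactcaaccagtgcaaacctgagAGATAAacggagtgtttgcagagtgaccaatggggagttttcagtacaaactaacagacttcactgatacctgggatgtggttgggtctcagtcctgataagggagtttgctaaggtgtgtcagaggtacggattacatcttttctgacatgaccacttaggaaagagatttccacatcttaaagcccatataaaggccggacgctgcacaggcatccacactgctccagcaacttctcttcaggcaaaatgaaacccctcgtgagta
Gkn3: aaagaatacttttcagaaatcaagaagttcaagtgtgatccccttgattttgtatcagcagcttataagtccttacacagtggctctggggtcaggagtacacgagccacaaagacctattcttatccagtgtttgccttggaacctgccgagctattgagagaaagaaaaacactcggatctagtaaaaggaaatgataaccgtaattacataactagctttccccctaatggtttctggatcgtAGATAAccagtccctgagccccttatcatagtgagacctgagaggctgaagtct
AGATAA occurred 1 time in each of the 3 windows, and neither TTTATG nor GTTAAT occurred in them. Over all 32851 promoter windows of that length AGATAA was found in 11.2%, and over the 11293 windows of 8813 tested genes in 6.63%. It was in 7.97% of 853 windows of genes called higher and in 7.06% of 737 windows of genes called lower. A match is a stretch of letters and not evidence of binding.

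Of the other large decreases, Muc5ac, the secreted mucin of the stomach surface, read 3.48, 3.46, 3.22, 3.48 and 3.27 in large intestinal adenomas and 9.58 to 12.92 in gastric adenomas (-8.38 ± 0.46, adjusted p = 6e-08). Cldn18, a claudin of stomach tight junctions, averaged 3.2 ± 0.16 in large intestinal adenomas and 11.37 ± 0.19 in gastric adenomas (SD) (-8.17 ± 0.12, adjusted p = 9.5e-14). Muc1, a transmembrane mucin, averaged 3.34 ± 0.41 in large intestinal adenomas and 11.51 ± 0.31 in gastric adenomas (-8.17 ± 0.2). Psca, which encodes a surface protein of gastric epithelium, differed by -7.96 ± 0.23, Gsdma2, a gasdermin gene, by -7.9 ± 0.71, Cblif, the gene of gastric intrinsic factor, by -7.75 ± 0.53, and Psapl1 by -6.91 ± 0.6. Psca, Gsdma2 and Cblif were at background in all 5 large intestinal adenomas. Psapl1 read 5.35 and 5.91 in samples 1 and 5 and was at background in the others.

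The list of gastric surface mucous cell genes had 17 tested members, of which 0 were called higher and 13 lower, with a median difference of -5.81, against 7.70% higher and 6.43% lower and a median of -0.00 over all tested genes. Gkn1, Gkn2, Gkn3, Muc5ac, Cldn18, Muc1 and Psca among them had a large intestinal mean at background. They were tested only through gastric adenoma and could only be called lower, so the direction of this count is in part set by the filter. Anxa10, an annexin of gastric epithelium chosen after its values were seen, differed among large intestinal adenomas. It read 11.28, 3.23, 9.17, 9.31 and 3.04 in them, high in samples 1, 3 and 4 and at background in samples 2 and 5, and 12.74 to 13.32 in gastric adenomas (-5.81 ± 1.26, adjusted p = 0.0042).

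The trefoil factors, small peptides that protect and repair mucosa, did not move together. Tff1, made by gastric surface cells, read 7.42, 5.72, 5.89, 6.03 and 5.93 in large intestinal adenomas and 13.98 to 14.36 in gastric adenomas (-7.97 ± 0.24, adjusted p = 1.7e-10). Tff2, made by gastric neck cells, read 5.8, 2.99, 2.86, 3.18 and 2.4 in large intestinal adenomas and 12.87 to 13.07 in gastric adenomas (-9.53 ± 0.45, adjusted p = 1.3e-08). Both fell, with large intestinal adenoma 1 the highest of its group for each and Tff1 above background in all 5. Tff3, made by goblet cells, rose: it read 13.22, 12.54, 13.12, 13.01 and 12.33 in large intestinal adenomas, and its gastric values lay between 5.1 and 10.6 with a median of 7.63 (4.99 ± 0.83, adjusted p = 0.00078). The 3 genes follow each other on chromosome 17 in RefSeq, with Tff2 between Tff3 and Tff1. Tff1 in gastric adenoma was near the highest value of the 12 arrays, 14.36, where the array may compress differences.

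Transcription factors of intestine and stomach differed between the tumours. Of 13 tested intestinal and hindgut factors, 12 rose and 0 fell, with a median difference of 2.89, against 7.70% higher and 6.43% lower over all tested genes. All but Hnf4g and Creb3l3 had a gastric mean at background. They were tested only through large intestinal adenoma and could only be called higher, so the direction of this count is largely set by the filter. Cdx2, a homeobox factor that specifies intestine, read 8.87, 9.73, 9.03, 9.25 and 9.52 in large intestinal adenomas and 2.88 to 4.44 in gastric adenomas (6.04 ± 0.27, adjusted p = 7.8e-09). Cdx1, its close relative, read 7.56, 8.39, 7.59, 7.87 and 8.91 in large intestinal adenomas and 2.4 to 3.3 in gastric adenomas (5.35 ± 0.25, adjusted p = 1.1e-08). Both genes were uniform across large intestinal adenomas and at background in gastric adenomas, except for Cdx2 in gastric adenoma 4, which read 4.44. Hox genes of this list called higher were Hoxb9 (3.49 ± 0.49), Hoxb6 (3.23 ± 0.32), Hoxa9 (3.12 ± 0.35), Hoxa10 (2.89 ± 0.74), Hoxd8 (2.71 ± 0.4), Hoxd9 (1.76 ± 0.44) and Hoxb8 (1.66 ± 0.19), all at background on average in gastric adenoma. They varied among large intestinal adenomas: Hoxa10 read 5.44, 7.01, 3.69, 3.64 and 8.75, highest in samples 2 and 5, and Hoxb9 read 3.99, 7.4, 6.3, 7.29 and 7.36, lowest in sample 1. Hoxc9 differed by 0.81 ± 0.24 (adjusted p = 0.021), under the threshold of 1. Hoxa11, Hoxa13, Hoxb7, Hoxb13, Hoxc10, Hoxd10, Hoxd11, Hoxd12 and Hoxd13 were measured but did not exceed the filter value on average in either group. The remaining called members were the nuclear receptors Nr5a2 (2.72 ± 0.31) and Hnf4g (2.45 ± 0.54) and Creb3l3 (2.95 ± 0.58), a membrane-bound factor of lipid metabolism.

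Of 16 tested stomach and foregut factors, 11 fell and 1 rose. Sox2, Gata4, Nkx6-2, Nkx6-3, Irx2, Irx3 and Irx5 were tested only through gastric adenoma and could only be called lower. Hoxa5 was tested only through large intestinal adenoma and could only be called higher. Sox2, which specifies foregut epithelium, read 4.09, 2.67, 2.81, 2.23 and 2.72 in large intestinal adenomas and 7.77 to 9.39 in gastric adenomas (-5.73 ± 0.38, adjusted p = 4.4e-07). Sample 1 was the highest of the large intestinal adenomas and the groups did not overlap. Gata4, a zinc finger factor of stomach and proximal intestine, read 3.88, 3.17, 3.2, 3.68 and 3.01 in large intestinal adenomas and 6.13 to 7.56 in gastric adenomas (-3.52 ± 0.28, adjusted p = 2.1e-06). Foxq1 (-4.05 ± 0.46), needed in mouse for Muc5ac in the stomach surface, Sox21 (-3.05 ± 0.35), Pitx1 (-2.17 ± 0.56), Nkx6-2 (-1.9 ± 0.25), Meis1 (-1.83 ± 0.25), Foxa1 (-1.32 ± 0.18) and Foxa2 (-1.14 ± 0.4, adjusted p = 0.044) fell too. The call of Foxa2 was lost with large intestinal adenoma 1 and gastric adenoma 4 left out (-0.82, adjusted p = 0.12). Foxa2 was not called by limma when large intestinal adenoma 1, 3 or 4 or gastric adenoma 1, 3, 4, 5, 6 or 7 was left out in turn (adjusted p between 0.05 and 0.11). Nkx6-3, a factor of antral gland and gastrin cells, was at background in all 5 large intestinal adenomas and read 9.28, 4.04, 2.86, 8.93, 9.52, 8.89 and 8.97 in gastric adenomas 1 to 7 (-4.64 ± 1.13, adjusted p = 0.0083). Gastric adenomas 2 and 3, low in Nkx6-3, were the samples in which the Iroquois factors were highest. Irx3 read 3.8, 8.86, 8.43, 4.93, 4.53, 3.72 and 7.4 in gastric adenomas 1 to 7, and Irx5 read 2.63, 8.39, 8.87, 4.3, 3.2, 2.67 and 2.96 in the same order. Large intestinal adenomas read 3.54 to 4.11 for Irx3 and 2.78 to 3.08 for Irx5, and neither gene was called (-2.09, adjusted p = 0.097 for Irx3 and -1.74, adjusted p = 0.25 for Irx5). Irx2 (-1.17, adjusted p = 0.11) and Hoxb4 (0.57, adjusted p = 0.046) were not called either. Hoxa5, a Hox gene of the foregut mesenchyme, was the member that rose (3.25 ± 0.36, adjusted p = 3.4e-05).

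**Figure D2:**
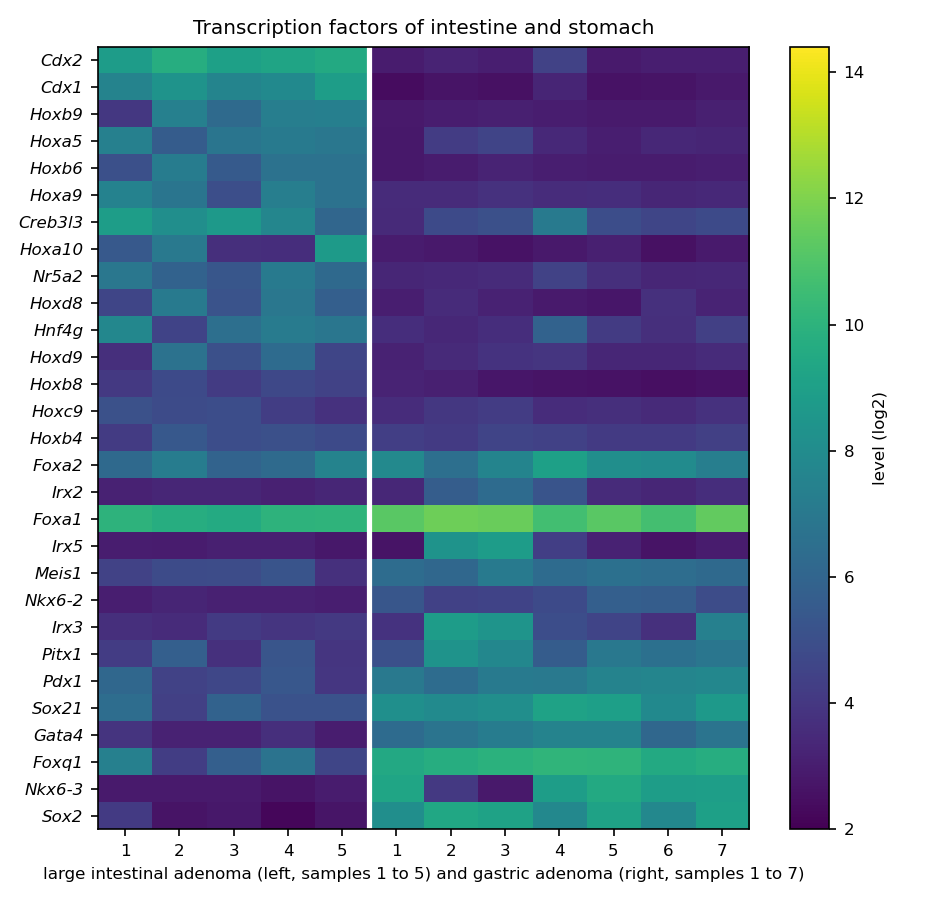
Levels (log2, colour) of the tested transcription factors of intestine and stomach in each sample, large intestinal adenomas on the left of the white line and gastric adenomas on the right, with genes ordered by their difference. Colours are to be compared along a row. Cdx2 and Cdx1 are high in all 5 large intestinal adenomas, Sox2 and Foxq1 in all 7 gastric adenomas, and Nkx6-3, Irx3 and Irx5 divide the gastric adenomas.

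Cdx2 and Pdx1 are neighbours on chromosome 5 in RefSeq and moved in opposite directions. Pdx1, a factor of antrum, duodenum and pancreas, read 6.13, 4.45, 4.63, 5.38 and 3.98 in large intestinal adenomas and 6.39 to 7.74 in gastric adenomas (-2.3 ± 0.35, adjusted p = 0.00041). Large intestinal adenoma 1 was again the highest of its group, and only sample 5 was at background. Their promoters are printed for that contrast, with the same motifs in capitals. Cdx2 lies on the minus strand (chr5:147307200-147307499) and Pdx1 on the plus strand (chr5:147269847-147270146).
Cdx2: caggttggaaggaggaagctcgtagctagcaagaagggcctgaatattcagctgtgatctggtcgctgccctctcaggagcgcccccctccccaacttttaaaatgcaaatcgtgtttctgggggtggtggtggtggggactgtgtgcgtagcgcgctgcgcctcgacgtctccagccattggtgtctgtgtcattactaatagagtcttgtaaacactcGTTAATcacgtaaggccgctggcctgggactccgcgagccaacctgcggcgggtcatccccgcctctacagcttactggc
Pdx1: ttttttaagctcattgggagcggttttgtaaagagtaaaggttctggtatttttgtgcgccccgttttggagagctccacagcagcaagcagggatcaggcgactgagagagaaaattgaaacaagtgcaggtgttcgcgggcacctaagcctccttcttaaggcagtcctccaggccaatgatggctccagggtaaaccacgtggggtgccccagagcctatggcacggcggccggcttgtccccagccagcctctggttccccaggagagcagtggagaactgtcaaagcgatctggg
The Cdx2 window held GTTAAT 1 time, and the Pdx1 window held none of the 3 motifs. GTTAAT was in 7.1% of all windows and 4.72% of those of tested genes, with 7.15% for genes called higher and 7.73% for genes called lower.

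The guanylin system was higher in large intestinal adenoma. Guca2b, the gene of uroguanylin and the neighbour of Guca2a on chromosome 4, read 10.48, 10.07, 10.54, 9.91 and 10.08 in large intestinal adenomas. In gastric adenomas 1 to 7 it read 3.08, 3.86, 3.71, 9.6, 3.52, 3.28 and 3.2 (5.9 ± 0.95, adjusted p = 0.00063). Sample 4 was close to the large intestinal adenomas and the other 6 gastric samples were at background. Without gastric adenoma 4 the difference was 6.78. Gucy2c, the gene of their common receptor, chosen after its values were seen, read 8.94, 9.28, 7.64, 8.58 and 9.56 in large intestinal adenomas and 2.74 to 7.1 in gastric adenomas (5.05 ± 0.66, adjusted p = 0.00013). The promoters of the ligand genes are given because the genes are adjacent and both rose: Guca2a lies on the plus strand (chr4:119637482-119637781) and Guca2b on the minus strand (chr4:119658896-119659195).
Guca2a: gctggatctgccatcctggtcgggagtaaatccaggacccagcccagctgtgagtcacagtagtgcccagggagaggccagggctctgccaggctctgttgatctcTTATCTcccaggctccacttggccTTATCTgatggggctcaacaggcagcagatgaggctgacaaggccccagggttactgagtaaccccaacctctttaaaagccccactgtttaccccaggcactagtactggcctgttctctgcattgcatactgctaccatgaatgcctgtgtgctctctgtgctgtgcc
Guca2b: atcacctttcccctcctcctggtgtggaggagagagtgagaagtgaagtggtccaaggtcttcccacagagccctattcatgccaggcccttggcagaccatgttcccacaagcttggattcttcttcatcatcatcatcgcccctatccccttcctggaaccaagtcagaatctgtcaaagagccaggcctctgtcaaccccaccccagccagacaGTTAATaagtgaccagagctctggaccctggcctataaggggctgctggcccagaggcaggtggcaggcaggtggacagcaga
AGATAA occurred 2 times in the Guca2a window, both on the opposite strand, and not in that of Guca2b, which held GTTAAT 1 time. TTTATG was in neither window. It was in 11.9% of all windows and 6.89% of those of tested genes, with 10.2% for genes called higher and 6.51% for genes called lower.

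More absorptive cell genes rose than fell in large intestinal adenoma. Of 21 tested colon absorptive genes, 11 rose and 2 fell, with a median difference of 1.62. The counts were 10 and 1 with large intestinal adenoma 1 and gastric adenoma 4 left out. Slc26a3, the chloride and bicarbonate exchanger of colon, read 7.42, 10.78, 8.59, 7.7 and 10.47 in large intestinal adenomas and 2.45 to 5.9 in gastric adenomas (5.84 ± 0.72, adjusted p = 8.5e-05). Saa1, an acute phase protein made by colon epithelium, read 6.75, 8.88, 7.78, 6.86 and 11.18 in large intestinal adenomas and 2.57 to 3.57 in gastric adenomas (5.28 ± 0.62, adjusted p = 6e-05). Both genes were highest in large intestinal adenomas 2 and 5. The members that fell were Scnn1a and Scnn1g, subunits of the epithelial sodium channel. Aqp8, a water channel of colonocytes chosen after its values were seen, read 8.98 and 10.16 in samples 2 and 5 and was at background in the other large intestinal adenomas and in all gastric adenomas (2.53, adjusted p = 0.12).

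Brush border scaffold genes gave 8 higher and 0 lower of 14 tested. Cdh17, an adhesion molecule of intestinal epithelium, read 11.35 to 11.72 in large intestinal adenomas and 3.94 to 9.49 in gastric adenomas (6.05 ± 0.78, adjusted p = 0.00012). The intermicrovillar adhesion complex, which ties microvilli together at their tips, was represented by Ush1c (4.29 ± 0.52), Myo7b (3.99 ± 0.56) and Cdhr2 (3.98 ± 0.59), all called, with gastric adenoma 4 the highest gastric sample for each. Small intestinal enterocyte genes gave 4 higher and 0 lower of 15, and 6 higher and 1 lower with both samples left out. The called members were Otc, a urea cycle enzyme (4.79 ± 0.72), Enpep, a brush border peptidase (4.16 ± 1.25), Fabp2, a fatty acid binding protein (3.9 ± 1.02), and Slc5a1, the sodium and glucose cotransporter (3.57 ± 0.97). Enpep was not called by limma when large intestinal adenoma 1, 3 or 4 was left out in turn (adjusted p between 0.053 and 0.066). Gastric adenoma 4 was the highest of its group for all 15 tested members of this list. Apoa4, a lipoprotein of enterocytes, read 11, 8.48, 10.67, 9.23 and 3.39 in large intestinal adenomas and 3.8, 6.74, 3.79, 11.77, 4.57, 3.64 and 4.71 in gastric adenomas 1 to 7. Its difference was 2.98, adjusted p = 0.16, and 4.01 without gastric adenoma 4 (adjusted p = 0.022). Alpi, intestinal alkaline phosphatase, chosen after its values were seen, was not called (1.2, adjusted p = 0.46): it read 8.33 to 10.84 in large intestinal adenomas and 12.09 in gastric adenoma 4.

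Secretory cell genes moved in both directions. Of 15 tested goblet cell genes 8 rose and 2 fell, with a median of 2.93. Atoh1, the master factor of the intestinal secretory lineage, read 7.67, 6.95, 6.69, 7.4 and 7.17 in large intestinal adenomas and 2.49 to 3.55 in gastric adenomas (4.38 ± 0.22, adjusted p = 2.5e-08), with no overlap. The members that fell were Clca1 and Sytl2. Of 10 tested genes of Paneth and deep crypt secretory cells, Reg4 rose, Cd24a fell (-1.51, adjusted p = 0.00021) and the others were not called. Among these, the Paneth products Mmp7 and Defa39 differed widely between large intestinal adenomas. Mmp7, which activates defensins in mouse Paneth cells, read 10.8, 3.87, 10.69, 11.31 and 6.58 in large intestinal adenomas, and Defa39, a defensin, read 9.8, 3.53, 4.12, 9.24 and 3.54. Gastric adenomas lay at 4.38 to 7.07 for Mmp7 and 3.14 to 4.98 for Defa39. Reg3g, an antimicrobial lectin, read 11.98, 5.36, 13.65, 13.63 and 11.98 in large intestinal adenomas, low in sample 2 alone, and 5.8 to 12.17 in gastric adenomas (2.19, adjusted p = 0.25).

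Mucins and claudins each had members called in both directions. Of 7 tested mucins, Muc13 (3.47 ± 0.89) and Muc3 (3.23 ± 0.98), both transmembrane mucins of intestine, rose. Muc5ac, Muc1, Muc4 (-2.18 ± 0.59) and Muc20 (-1.7 ± 0.5, chosen after its values were seen) fell. Muc13 and Muc3 were lowest in gastric adenomas 1 and 6: Muc13 read 11.27 to 12.25 in large intestinal adenomas, against 6.35, 10.41, 10.02, 9.84, 6.81, 4.78 and 8.92 in gastric adenomas 1 to 7. Muc3 was not called by limma when large intestinal adenoma 3 or 5 was left out in turn (adjusted p between 0.054 and 0.057). Muc20 was not called by limma when large intestinal adenoma 2 was left out (adjusted p = 0.052). Of 10 tested claudins, 5 rose and Cldn18 fell. Cldn3 read 10.79 to 11.54 in large intestinal adenomas and 5.15 to 7.47 in gastric adenomas (4.79 ± 0.35, adjusted p = 1.1e-06). Cldn15, a claudin that forms cation pores (3.53 ± 0.73), Cldn4 (2.98 ± 0.44), Cldn23 (1.8 ± 0.4) and Cldn7 (1.62 ± 0.21) were the others. Among 17 mucin glycosyltransferase genes, 4 rose and 2 fell. B4galnt2, which makes the Sda glycan of colon, read 10.62, 11.37, 10.84, 10.88 and 11.23 in large intestinal adenomas. In gastric adenomas it read 9.83 in sample 4 and no more than 5.35 in the others (6.1 ± 0.95, adjusted p = 0.00049). B3gnt6, which makes the core 3 O-glycan of colon mucin (2.18 ± 0.4), and Chst4, a sulfotransferase (2.45 ± 0.55), rose. A4gnt, which makes the glycan of gastric gland mucin, fell (-2.15 ± 0.68, adjusted p = 0.029), and was not called with both samples left out (adjusted p = 0.073). A4gnt was not called by limma when large intestinal adenoma 1 or 3 or gastric adenoma 7 was left out in turn (adjusted p between 0.054 and 0.079).

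Genes common to both epithelia were called in both directions. Of 14 tested general epithelial genes, Cldn7 rose, Prss8 (-1.51 ± 0.19) and Grhl2 (-1.19 ± 0.15) fell, and the median was -0.06. Spint1 was also called higher with both samples left out. Epcam, an epithelial adhesion molecule, differed by 0.99 ± 0.17 (adjusted p = 0.0011), just under the threshold of 1. The mean level of the list's members ran from 9.94 to 10.14 across large intestinal adenomas and from 9.94 to 10.17 across gastric adenomas. Of the simple keratins, Krt23 fell (-3.55 ± 0.79, adjusted p = 0.0049). It read 7.66, 2.97, 5.29, 6.88 and 3.45 in large intestinal adenomas, where samples 2 and 5 were at background, and 7.92 to 10.35 in gastric adenomas. Krt19 (0.03 ± 0.1, interval -0.2 to 0.25), Krt20 (0.32 ± 0.16, interval -0.03 to 0.67), Krt8 (0.27 ± 0.07), Krt18 (-0.51 ± 0.2) and Krt7 (-0.87 ± 0.43) were not called. The intervals are 95% intervals of the limma fit. Krt7 was called lower with large intestinal adenoma 1 and gastric adenoma 4 left out (-1.34, adjusted p = 0.023 by limma).

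Several markers of gastric glands fell. Of 11 tested chief and mucous neck cell genes 7 fell and 0 rose, and of 10 tested parietal cell genes 5 fell and 0 rose. Tff2, Cblif, Bpifb1, Pgc, Atp4a and Kcnj15 among them had a large intestinal mean at background and could only be called lower. The direction of both counts is thus in part set by the filter. Pgc, the gene of progastricsin, a stomach protease precursor, was at background in all 5 large intestinal adenomas and read 4.42 to 11.4 in gastric adenomas (-4.34 ± 0.96, adjusted p = 0.005). Aqp5, a water channel of pyloric glands (-5.01 ± 0.88), and Bpifb1, a secreted lipid-binding protein (-6.11 ± 0.93), fell too. Atp4a, the catalytic subunit of the gastric proton pump, read 2.84 to 3.3 in large intestinal adenomas and 8.67, 8.4, 9.75, 12.2, 3.28, 3.46 and 8.99 in gastric adenomas 1 to 7 (-4.68 ± 1.33, adjusted p = 0.018). Gastric adenomas 5 and 6 were thus at background for this parietal cell gene, and sample 4 was the highest. Atp4b, its partner subunit, followed the same order of samples (-4.31 ± 1.11, adjusted p = 0.011). Clic6, a chloride channel protein of parietal cells (-3.46 ± 0.61), and Kcnj15, a potassium channel (-2.53 ± 0.72), fell. Car2, a carbonic anhydrase of parietal cells that colonocytes also use, read 7.92, 12.04, 8.95, 7.39 and 12.06 in large intestinal adenomas, within the gastric range of 11.77 to 12.99 in samples 2 and 5 and below it in the others (-2.91 ± 0.76, adjusted p = 0.012).

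Hormone genes were called in both directions. Ghrl, the gene of the stomach hormone ghrelin, read 5.55, 3.07, 4.05, 5.63 and 2.73 in large intestinal adenomas and 7.68 to 12.5 in gastric adenomas (-5.9 ± 0.87, adjusted p = 0.00032). Sst, somatostatin, fell as well (-2.3 ± 0.6, chosen after its values were seen), and so did Isl1, a factor of endocrine cells (-3.01 ± 0.63). Nts, neurotensin, a hormone of distal gut, read 9.62, 4.99, 8.98, 10.16 and 8.01 in large intestinal adenomas and 2.97 to 3.68 in gastric adenomas (5.13 ± 0.69, adjusted p = 0.00016). Gcg, the proglucagon gene of L cells (3.85 ± 0.57), Sct, secretin (2.56 ± 0.53), and Cck, cholecystokinin (2.43 ± 0.56, chosen after its values were seen), rose. Of 16 tested members 5 rose and 4 fell. Gast, the gene of gastrin, chosen after its values were seen, read 2.73 to 3.08 in large intestinal adenomas and 3.14, 3.08, 3.05, 3.4, 8.03, 6.4 and 8.78 in gastric adenomas 1 to 7 (-2.19, adjusted p = 0.13). It was above background in gastric adenomas 5, 6 and 7 alone.

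The list of forestomach and other squamous epithelium had 1 member called higher and 3 lower of 13 tested. Ivl, involucrin, a component of the cornified envelope, read 5.42, 2.63, 2.69, 2.85 and 2.82 in large intestinal adenomas and 6.33 to 10.05 in gastric adenomas (-5.14 ± 0.65, adjusted p = 0.0001). Sprr1a, another envelope protein (-1.87 ± 0.47), and Krt4 (-2.25 ± 0.73, adjusted p = 0.033), a keratin of stratified epithelium, fell. Krt4 was not called by limma when large intestinal adenoma 2, 3, 4 or 5 or gastric adenoma 2, 5 or 7 was left out in turn (adjusted p between 0.055 and 0.07). Krt14, a keratin of basal squamous cells, read 7.45, 3.27, 2.68, 3.54 and 3.47 in large intestinal adenomas and 2.65, 6.0, 9.49, 4.75, 9.17, 3.3 and 5.93 in gastric adenomas 1 to 7 (-1.82, adjusted p = 0.29). Krt5, its partner, was not called either (-2.15, adjusted p = 0.097). Both keratins were above background in large intestinal adenoma 1 alone of its group and varied among gastric adenomas, highest in samples 3 and 5.

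**Figure D3:**
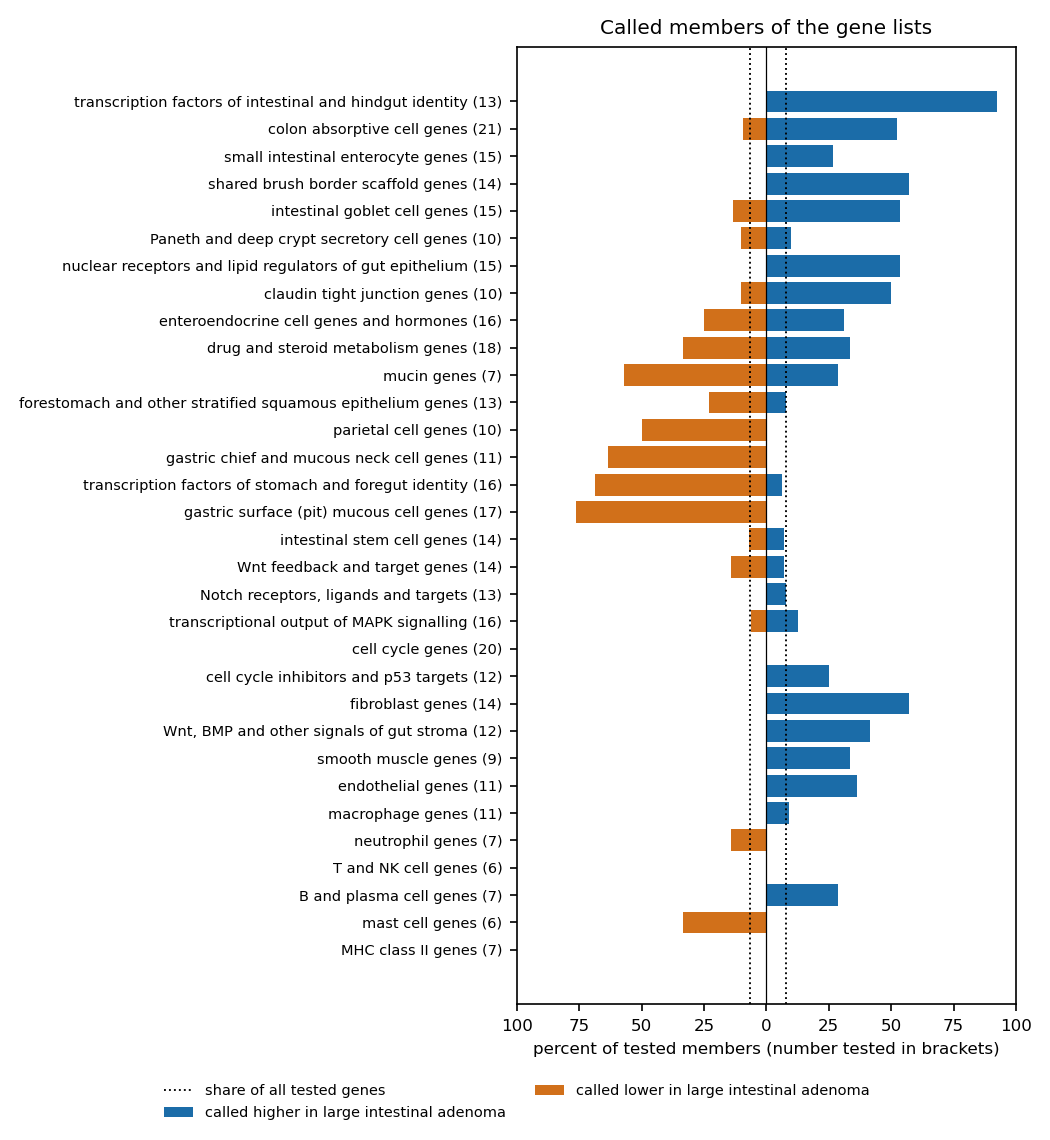
Percent of the tested members of each gene list that were called higher (bars to the right) or lower (bars to the left) in large intestinal adenoma, with the number of tested members in brackets. Dotted lines mark the shares over all tested genes, 7.70% higher and 6.43% lower. Intestinal factors, colonocyte and brush border lists extend to the right, gastric lists to the left, and the cell cycle list has no called member.

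Nuclear receptors of gut epithelium rose in part: 8 of 15 tested members were called higher and 0 lower. Ppara, the fatty acid receptor, read 6.68 to 7.36 in large intestinal adenomas and 3.46 to 5.83 in gastric adenomas (2.94 ± 0.35, adjusted p = 6.4e-05). Nr1h4, the bile acid receptor (2.82 ± 0.41), Vdr, the vitamin D receptor (2.45 ± 0.59), and Nr1i2, the pregnane X receptor (2.06 ± 0.47), rose too. Gastric adenoma 4 was the highest gastric sample for 13 of the 15 tested members, and with both samples left out the counts were 8 higher and 0 lower. Drug metabolism genes were called in both directions: 6 rose and 6 fell of 18. Aldh3a1, an aldehyde dehydrogenase of stomach, read 4.3, 2.94, 2.69, 2.87 and 3.72 in large intestinal adenomas and 8.38 to 12.02 in gastric adenomas (-6.35 ± 0.58, adjusted p = 8.1e-06). Aldh1b1, a mitochondrial family member, went the other way, with 8.66 to 10.24 in large intestinal adenomas and 3.33 to 5.43 in gastric adenomas (5.54 ± 0.37, adjusted p = 4.9e-07). Cyp4f14, a cytochrome P450 (5.93 ± 0.72), and Ces2e, a carboxylesterase (5.32 ± 0.56), rose. Cyp2c55 rose on average (5.09 ± 1.37, adjusted p = 0.014), but its large intestinal values were 5.0, 12.51, 9.62, 4.41 and 13.32, so that samples 1 and 4 lay just above the gastric range of 3.43 to 4.37. Its SD was 4.14 in large intestinal and 0.37 in gastric adenomas. The fit takes 1 spread for both groups, so its standard error and p may be too small for this gene.

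None of 20 tested cell cycle genes, needed for growth, was called in limma, against 14.1% of all genes, and their median difference was -0.05. None had an unadjusted p under 0.05 in limma, against 4604 of all 10918 tested genes. The mean level of the list was lowest in large intestinal adenoma 3 (5.85, the others 7.29 to 8.06) and gastric adenoma 4 (6.28, the others 7.07 to 8.10), which widens the spread within groups. Mki67, the Ki-67 gene, chosen after its values were seen, read 7.31 to 9.4 in large intestinal adenomas and 7.42 to 9.58 in gastric adenomas (-0.17 ± 0.38, interval -1.01 to 0.66). Stem cell and Wnt genes were called in both directions. Their counts are small, stand beside 7.70% higher and 6.43% lower over all tested genes, and are not read as results about a pathway. Of 14 tested stem cell genes Hopx rose (1.85 ± 0.32, adjusted p = 0.0011) and Ephb3, an ephrin receptor of crypts, fell (-1.62 ± 0.39, adjusted p = 0.0074), and Sox9 fell too with both samples left out. Olfm4 (-1.53, adjusted p = 0.34) and Smoc2 (1.41, adjusted p = 0.053) were not called. Of 14 tested Wnt target and feedback genes, 1 rose and 2 fell. The one that rose, Dkk3, was not called with both samples left out, which gave 0 higher and 2 lower. Wnt11, a secreted Wnt ligand (-3.13 ± 0.51, adjusted p = 0.00064), and Znrf3, a ubiquitin ligase that removes Wnt receptors (-1.34 ± 0.37, adjusted p = 0.016), were the ones that fell. Lgr5, the R-spondin receptor of stem cells, was not called (-1.12, adjusted p = 0.3) and read 5.04, 3.61, 3.03, 5.98 and 3.25 in large intestinal adenomas and 7.94, 4.31, 3.6, 5.46, 4.48, 7.13 and 4.22 in gastric adenomas 1 to 7.

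Gastric adenomas 1 and 6 were the highest samples for several of these feedback genes. Notum, a secreted enzyme that inactivates Wnt, read 3.23 to 3.38 in large intestinal adenomas and 6.73, 3.86, 3.74, 3.62, 3.89, 6.8 and 4.36 in gastric adenomas 1 to 7. Nkd1, chosen after its values were seen, read 3.85 to 4.59 in large intestinal adenomas and 8.22, 3.9, 4.31, 4.55, 4.07, 8.25 and 4.1 in gastric adenomas 1 to 7. Etv4 and Etv5, factors induced by MAPK signalling, showed the same samples: Etv5 read 4.51 to 6.19 in large intestinal adenomas, against 9.76, 5.76, 5.35, 4.45, 6.29, 9.88 and 6.23 in gastric adenomas 1 to 7. None of these 4 genes was called (adjusted p = 0.084, 0.34, 0.21 and 0.28 for Notum, Nkd1, Etv4 and Etv5).

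Of 16 tested genes of MAPK output 2 rose and 1 fell, against 7.70% higher and 6.43% lower over all tested genes. So small a count, like those of the Notch, cell cycle inhibitor and fetal-like lists below, is not read as a result about a pathway. Ereg, an EGF receptor ligand (2.37 ± 0.71, adjusted p = 0.024), and Dusp6 (1.22 ± 0.33) rose, and Dusp4 (-1.55 ± 0.4), a phosphatase gene like Dusp6, fell. Ereg was not called by limma when large intestinal adenoma 3 or 4 was left out in turn (adjusted p between 0.052 and 0.064). Of 13 tested Notch pathway genes Jag1, a ligand, rose (1.25 ± 0.33, adjusted p = 0.012), and did not pass the threshold of 1 with both samples left out (0.93). Hes1, a Notch target, had an adjusted p of 0.0036 but a difference of -0.85, under the threshold. Of 12 tested cell cycle inhibitors and p53 targets 3 rose, and 4 with both samples left out, where Cdkn1c was added (1.77, adjusted p = 0.02 by limma). Cdkn2a, the gene of p16 and p19Arf, read 8.71, 3.11, 8.81, 8.17 and 5.63 in large intestinal adenomas and 2.65 to 5.13 in gastric adenomas (3.43 ± 0.89, adjusted p = 0.012). It was high in samples 1, 3 and 4, intermediate in sample 5 and at background in sample 2. Rb1, the retinoblastoma gene, was uniform by comparison, with 8.77 to 9.02 in large intestinal adenomas and 6.9 to 8.25 in gastric adenomas (1.3 ± 0.21, adjusted p = 0.00066). Of 9 tested genes of the fetal-like and YAP list, Clu (-2.31 ± 0.51) and Il33 (-2.51 ± 0.83, adjusted p = 0.036) fell. Clu, clusterin, read 12.55, 8.76, 11.08, 12.3 and 11.78 in large intestinal adenomas, lowest in sample 2, and 13.06 to 13.83 in gastric adenomas. Il33 was not called by limma when large intestinal adenoma 2 or 5 or gastric adenoma 1, 2, 3, 5, 6 or 7 was left out in turn (adjusted p between 0.051 and 0.062).

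Several stromal genes rose in large intestinal adenoma. Of 14 tested fibroblast genes 8 rose and 0 fell, with a median of 1.3, and the mean level of the list ran from 7.36 to 8.35 across large intestinal adenomas and from 6.02 to 7.79 across gastric adenomas. Grem1, a BMP antagonist of the crypt stroma, read 9.0, 9.33, 10.4, 9.88 and 8.38 in large intestinal adenomas and 6.19 to 8.63 in gastric adenomas (2.1 ± 0.41, adjusted p = 0.0024). Foxf1, a factor of gut mesenchyme (1.63 ± 0.24, adjusted p = 0.00036), did not overlap between the groups. Fap (1.91 ± 0.31), Pdgfra (1.57 ± 0.27), Pdgfrb (1.52 ± 0.34), Col6a3 (1.95 ± 0.5) and Sparc (1.94 ± 0.51), genes of fibroblasts and their matrix, rose. Of 12 tested signals of gut stroma 5 rose, and 3 with both samples left out, which removed the calls of Bmp4 (1.51 ± 0.42, adjusted p = 0.062 then) and Bmp5 (1.61 ± 0.53, adjusted p = 0.11 then). Bmp5 was not called by limma when large intestinal adenoma 1, 2, 3 or 4 or gastric adenoma 1, 4, 5 or 7 was left out in turn (adjusted p between 0.054 and 0.087). Wnt5a was not called (1.58, adjusted p = 0.06). Of 9 smooth muscle genes 3 rose, led by Mylk, myosin light chain kinase (2.53 ± 0.43). Of 11 endothelial genes 4 rose, Lyve1 (1.74 ± 0.36) and Pecam1 (1.55 ± 0.34) among them. Leaving both samples out kept 2 endothelial calls and ended those of Vwf and Cdh5. Vwf was not called by limma when large intestinal adenoma 1, 3, 4 or 5 or gastric adenoma 1, 4, 5 or 7 was left out in turn (adjusted p between 0.06 and 0.1). Cdh5 was not called by limma when large intestinal adenoma 1 or 4 or gastric adenoma 7 was left out in turn (adjusted p between 0.051 and 0.076). The part that more stromal cells in the dissected pieces had in these values was not tested.

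The 6 lists of immune cells had 44 tested genes, of which 6 were called (13.6%), near the 14.1% over all tested genes. None of 6 tested T and NK cell genes and none of 7 tested MHC class II genes was called in limma or had an unadjusted p under 0.05. Over all 10918 tested genes 4604 had such an unadjusted p. Of 11 macrophage genes Mrc1 rose (1.76 ± 0.57, adjusted p = 0.033), and of 7 B and plasma cell genes Ighm (2.85 ± 0.78, adjusted p = 0.015) and Pou2af1 (1.74 ± 0.61, adjusted p = 0.047). All 3 calls were lost with both samples left out (adjusted p = 0.059, 0.061 and 0.11 for Mrc1, Ighm and Pou2af1). Mrc1 was not called by limma when large intestinal adenoma 2, 3 or 4 or gastric adenoma 1 or 5 was left out in turn (adjusted p between 0.058 and 0.079). Pou2af1 was not called by limma when large intestinal adenoma 1, 2, 3 or 5 or gastric adenoma 1, 4, 5, 6 or 7 was left out in turn (adjusted p between 0.058 and 0.12). Jchain, the joining chain of secreted antibody, read 13.38, 12.72, 12.72, 11.43 and 12.97 in large intestinal adenomas and 5.04, 12.23, 12.54, 9.73, 8.38, 4.91 and 11.84 in gastric adenomas 1 to 7 (3.41, adjusted p = 0.07), lowest in gastric adenomas 1 and 6. Of 6 tested mast cell genes 0 rose and 2 fell, both proteases of mucosal mast cells, and Mcpt4 was called lower as well with both samples left out. Mcpt2 read 7.93, 3.46, 3.63, 6.37 and 6.95 in large intestinal adenomas and 8.37 to 11.55 in gastric adenomas (-4.65 ± 0.8, adjusted p = 0.00098), and Mcpt1 differed by -3.14 ± 0.82. Ltf, lactoferrin, of the neutrophil list, fell (-5.94 ± 1.04, adjusted p = 0.0011), and it was the only called member of 7 tested.

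Prom1, the gene whose cells the study targeted, did not separate the tumours. It read 3.18, 3.0, 11.25, 10.82 and 2.76 in large intestinal adenomas 1 to 5 and 11.73, 11.68, 2.87, 9.88, 11.01, 11.93 and 11.74 in gastric adenomas 1 to 7. High values near 11 and values at background occurred in both groups: 2 of 5 large intestinal adenomas and 6 of 7 gastric adenomas were high. The difference was -3.92 ± 1.96 (95% interval -8.16 to 0.33, adjusted p = 0.15), so it was not called. Without gastric adenoma 3, the low gastric sample, it was -5.12 with an adjusted p of 0.033 by limma and would be called. A single probe set stands for the gene.

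The genes with the largest spread among large intestinal adenomas were Prom1, Cyp2c55, Lgals2, Itln1, Bcl2l15 and Apoa1. Lgals2, a galectin of enterocytes, read 13.07, 5.72, 12.3, 12.78 and 3.75, Itln1, intelectin, read 11.55, 2.77, 9.87, 10.35 and 3.09, and Apoa1, an apolipoprotein, read 12.69, 8.27, 11.78, 11.34 and 3.25 in samples 1 to 5. Bcl2l15 read 10.49, 2.94, 10.75, 10.24 and 2.82. All 4 were higher in samples 1, 3 and 4 than in samples 2 and 5, as were Anxa10, Cdkn2a and Fabp1, an enterocyte fatty acid binding protein chosen after its values were seen (11.32, 4.84, 10.9, 10.05 and 3.15). Cyp2c55 and Aqp8 had the opposite order, with samples 2 and 5 highest. Prom1 followed neither order, being high in samples 3 and 4. Of 10918 tested genes, 117 (1.07%) had a standard deviation above 2 among large intestinal adenomas and 112 (1.03%) among gastric adenomas.

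Among gastric adenomas the genes with the largest spread included Atp4a, Pla2g1b, Chia1, Chil4, Amy2a5 and Xist. Pla2g1b, a secreted phospholipase, was at background in large intestinal adenomas and read 10.24, 6.72, 8.53, 13.22, 3.3, 4.52 and 9.81 in gastric adenomas 1 to 7. Chia1, an acidic chitinase of chief cells, read 10.71, 3.09, 6.74, 12.47, 2.81, 3.19 and 9.31, and Chil4, a chitinase-like protein, read 3.61, 6.71, 5.24, 12.38, 11.25, 8.24 and 13.22 in the same samples. Amy2a5, pancreatic amylase, read 11.82 in sample 4 and no more than 5.55 elsewhere. Of 12 measured pancreatic acinar genes only 3 passed the filter, Amy2a5, Clps and Cela1. Clps, the gene of colipase, and Cela1, an elastase gene, were called lower, and none was called higher. All 3 were lower in every large intestinal adenoma than in any gastric adenoma, against 8.27% of all tested genes, with a median difference of -2.17. The mean level of the list was 3.77 to 4.07 in large intestinal adenomas and 4.22 to 5.78 in gastric adenomas. Which members passed, and their direction, may thus be set in part by the filter. Cpa1, Cpb1, Ctrb1 and Prss2 were among those that did not pass the filter. Xist, expressed from the inactive X chromosome of females, read 6.16, 11.05, 11.41, 10.55 and 10.71 in large intestinal adenomas and 3.78, 4.03, 11.22, 10.75, 11.15, 4.2 and 10.97 in gastric adenomas 1 to 7. Eif2s3y, a Y-linked gene, read 8.96, 2.83, 2.75, 2.45 and 2.91 in large intestinal adenomas and 8.75, 8.53, 2.83, 3.11, 2.84, 8.98 and 2.65 in gastric adenomas 1 to 7. Y-linked transcripts were thus above background in large intestinal adenoma 1, where Xist had an intermediate level, and in gastric adenomas 1, 2 and 6, where Xist was near background. Large intestinal adenoma 1 is the same sample that held low levels of Gkn3, Tff2 and Krt14, and the part of RNA from another tissue or animal in its values was not tested.

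**Figure D4:**
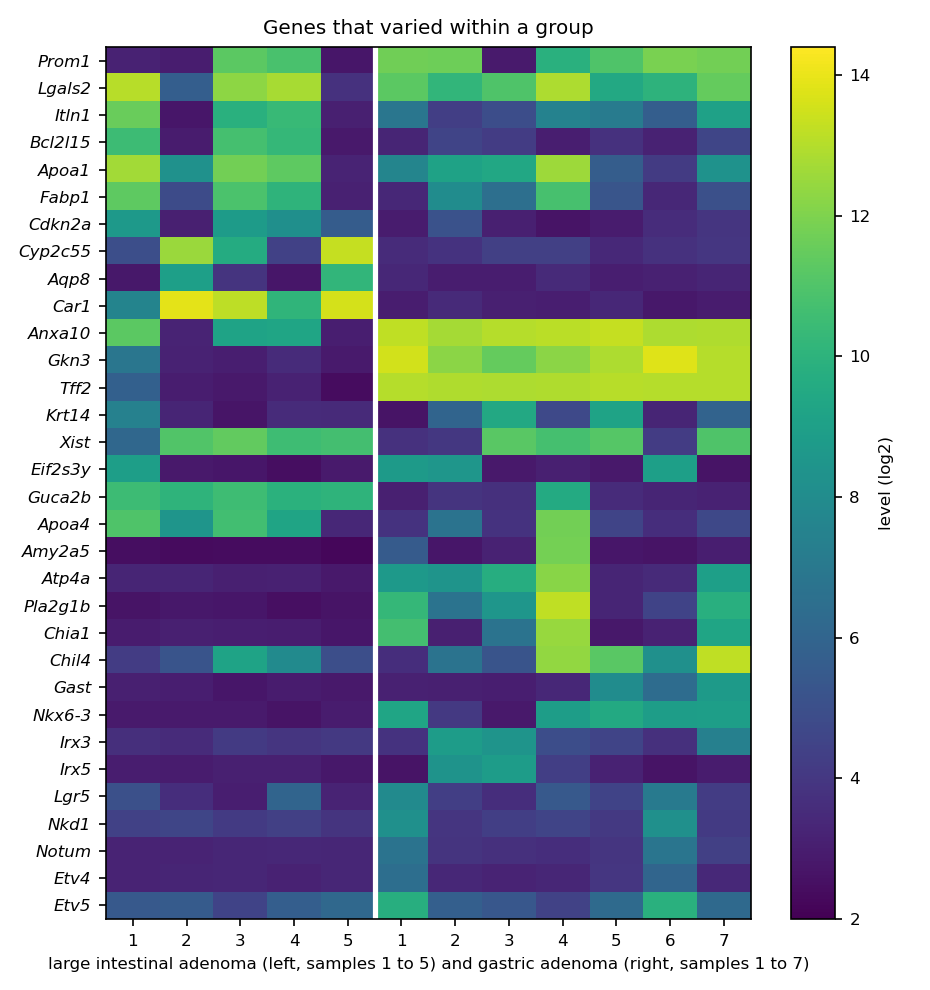
Levels (log2, colour) of genes that varied within a group, large intestinal adenomas on the left of the white line and gastric adenomas on the right, to be compared along a row. Large intestinal adenomas 1, 3 and 4 are higher than 2 and 5 from Lgals2 to Cdkn2a, gastric adenoma 4 is high for Guca2b, Apoa4 and Amy2a5, and gastric adenomas 1 and 6 are high from Lgr5 to Etv5.

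Levels in related groups of the series are given as descriptions, with no test, since the sorted cells were extracted with another kit. In 3 small intestinal adenomas Cdx2 averaged 7.79 ± 0.75 and in 4 gastric adenocarcinomas 3.28 ± 0.43 (SD). In cells sorted for Prominin1 it read 8.68 to 9.18 in 3 small intestinal samples and 3.39 to 3.6 in 2 stomach samples. Guca2a averaged 7.0 ± 1.77 in small intestinal adenomas and 3.2 ± 0.3 in gastric adenocarcinomas. Car1 was at background in all 3 small intestinal adenomas (3.06 to 3.22) and in the sorted cells of both organs. Reg4 averaged 7.37 ± 1.88 in small intestinal adenomas and 2.68 ± 0.1 in gastric adenocarcinomas. Hoxb9 was at background in small intestinal adenomas (2.64 to 3.09), under every large intestinal adenoma.

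Gkn2 averaged 6.83 ± 1.68 in small intestinal adenomas and 9.72 ± 2.42 in gastric adenocarcinomas, and read 9.38 to 12.17 in cells sorted from small intestine and 13.63 to 13.9 in cells sorted from stomach. Tff1 read 10.22 to 10.55 in small intestinal adenomas, above every large intestinal adenoma. Sox2, by contrast, was at background in all 3 small intestinal adenomas (2.49 to 2.84) and averaged 6.57 ± 2.58 in gastric adenocarcinomas. Cldn18 read 3.22 to 10.73 in gastric adenocarcinomas, a span that begins within the range of large intestinal adenomas (3.05 to 3.45) and ends below that of gastric adenomas (11.15 to 11.73). Ghrl was at background in all 4 gastric adenocarcinomas (2.77 to 3.15) and at 9.39 to 10.42 in cells sorted from stomach.

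**Figure D5:**
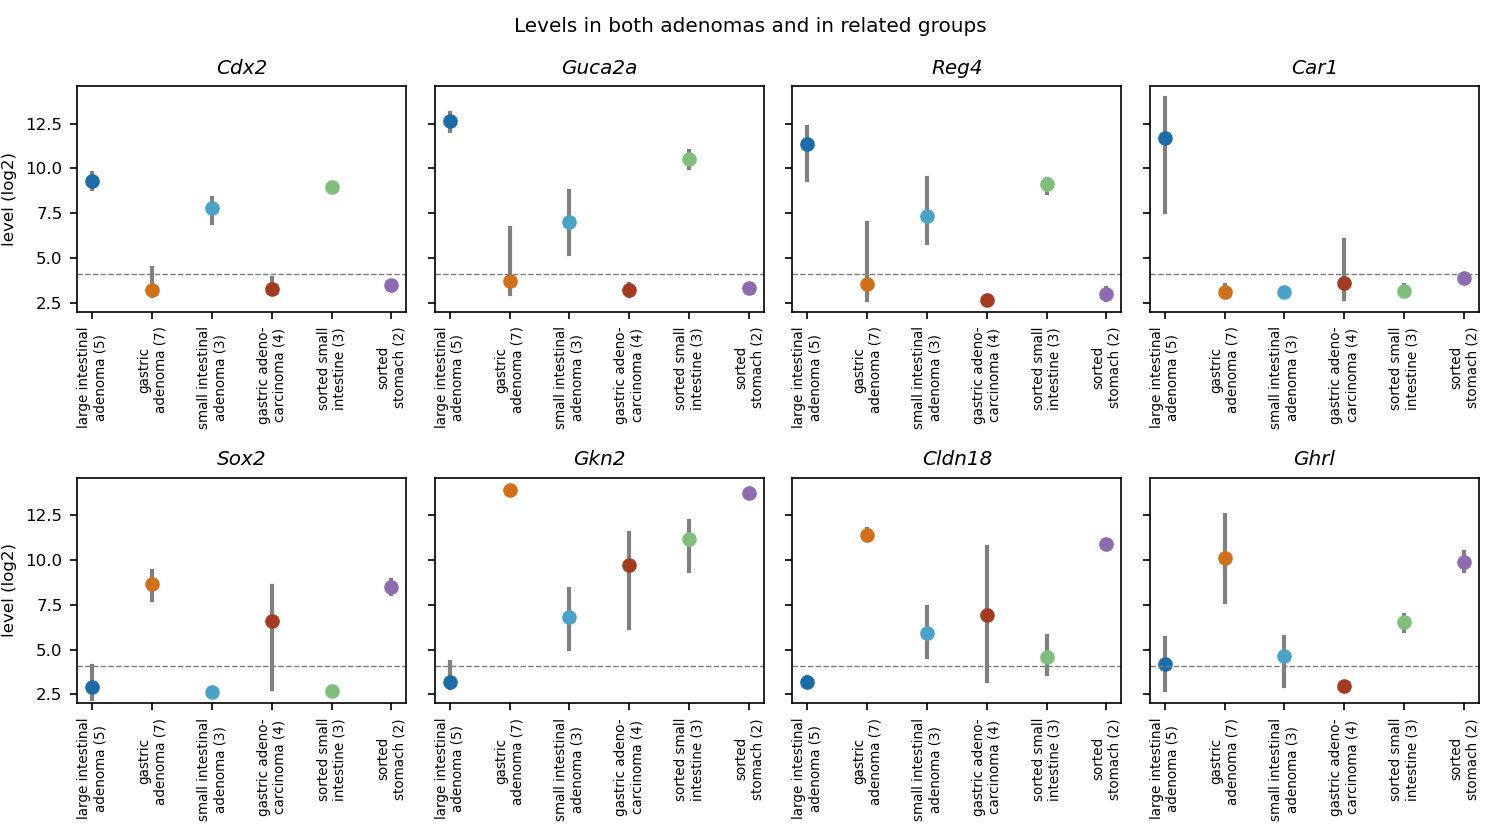
Mean level (log2, points) and range over samples (grey bars) of 4 genes high in large intestinal adenoma (upper row) and 4 high in gastric adenoma (lower row) in 6 groups, with the number of samples in brackets. The dashed line is the filter value of 4.09. Cdx2, Guca2a and Reg4 are also above it in small intestinal adenoma, Car1 is not, and the means of Gkn2 in small intestinal adenoma and gastric adenocarcinoma lie between those of the first 2 groups.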

How the data were processed

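The authors deposited log2 values, 1 for each probe set and array, processed with Partek 6.6 per the submitters' processing notes. The log base was inferred from their span of 1.98 to 14.36 in the 12 arrays. Background correction and normalization methods were not given in those notes as used here. No further scaling was applied. Array medians were 3.84 to 3.96 in large intestinal adenomas and 3.82 to 3.94 in gastric adenomas.

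The deposited values covered 45141 probe sets, of which 28898 named 1 gene each, 17097 genes in all. The rest were 104 controls, 551 probe sets of several genes and 15588 without a gene name here. A gene was represented by its probe set of highest mean. Promoters with their GRCm38.p6 coordinates, and gene order, came from RefSeq. Of 204 genes described, 66 had several probe sets, and all 54 further probe sets above 4.09 had the same direction.

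The 5 and 7 arrays were fitted alone with limma 3.58.1 in R 4.3.3, with 1 mean per group, trended empirical Bayes moderation and Benjamini-Hochberg adjustment over the 10918 genes whose mean exceeded the 40th percentile in a group. Summaries, the exact permutation test and figures used Python 3.11.15, pandas 2.3.3, numpy 2.4.6 and matplotlib 3.10.9. On simulated data with these groups, 10519 genes were tested, those given a known change included. Of log2 changes of 1.5, 2 and 3, 80.7%, 88.4% and 96.3% were called, with at most 8 false calls. The limma fit also takes 1 spread per gene for both groups. For genes much more uneven among large intestinal than gastric adenomas, such as Cyp2c55 and Anxa10, its standard errors and p-values may be too small. The number of arrays limits the precision. Alternatives changed the scaling, the filter, the probe sets of a gene, the moderation, the array weights and the samples in the fit.

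Groups, lists and members were chosen with earlier results of these data known, so lists are described by counts and medians only. Named genes are Prom1, the 12 largest increases and decreases without overlap, up to 5 members of each list by size of difference, all trefoil, simple keratin and transcription factor members, and the 6 genes with the largest spread per group; others are said to be chosen after their values were seen, and called members of a list are listed without values. The 47 lists held 678 genes, of which 600 were measured, 479 tested and 186 called. Given only in the closing section are the lists of enteric neurons and glia, interferon response, cytokines, adipocytes, hepatocytes, erythroid cells, skeletal muscle, and imprinted and fetal genes.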

Additional observations from a re-analysis of the deposited data

Results flagged for a closer look

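Within each group of 5 or 7 samples, 56 of 414 sets of values held a highest or lowest sample whose gap to its neighbour exceeded Dixon's 95% critical value. Chance alone gives about 1 in 20 for sets chosen without regard to their values. Some of the genes examined here were chosen for their spread or after their values were seen, so that share is no reference for them. Genes of a sample are also not independent. Large intestinal adenoma 1 was the isolated highest sample of its group for Gkn1 at 4.52, Gkn2 at 4.32, Gkn3 at 6.88, Tff1 at 7.42 and Tff2 at 5.8. It was so for the squamous genes Ivl at 5.42, Krt5 at 6.42 and Krt14 at 7.45 and for the Y-linked genes Eif2s3y at 8.96, Kdm5d at 6.44 and Uty at 6.19, and it was lowest for Xist at 6.16. Large intestinal adenoma 5 was isolated for Hoxa13 (highest, 4.28), Sparc (lowest, 10.2) and Bmp5 (lowest, 5.69), sample 2 for Reg3g (lowest, 5.36) and Lyz2, a lysozyme of macrophages (lowest, 9.3), sample 3 for Mcm6 (lowest, 6.06) and sample 4 for Nkx6-3 (lowest, 2.66).

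Gastric adenoma 4 was the highest gastric sample in 28 of the 56. Its isolated values were 6.69 for Guca2a, 9.6 for Guca2b, 7.1 for Gucy2c, 6.93 for Reg4, 8.92 for Clec2h and 4.19 for 9130208D14Rik. Among transcription factors and nuclear receptors they were 4.44 for Cdx2, 5.89 for Hnf4g, 4.47 for Nr5a2, 3.55 for Atoh1 and 5.83 for Ppara. Among brush border, transport and enterocyte genes they were 5.9 for Slc26a3, 9.49 for Cdh17, 6.92 for Ush1c, 7.39 for Myo7b, 9.37 for Cdhr2, 6.84 for Otc, 8.39 for Enpep, 10.29 for Slc5a1 and 11.77 for Apoa4. The rest were 4.98 for Defa39, 7.63 for Cldn15, 9.83 for B4galnt2, 5.51 for Gcg, 7.52 for Cyp4f14, 5.43 for Aldh1b1, 6.8 for Ces2e and 11.82 for Amy2a5. The same sample was isolated as the lowest for Il33 at 7.39, Clu at 13.06, Mcpt1 at 4.2 and Mcm6, a replication helicase gene, at 6.98. The remaining isolated gastric samples were gastric adenoma 3 for Prom1 (lowest, 2.87), gastric adenoma 2 for Mgat4c (highest, 3.1) and gastric adenoma 5 for Hoxd13 (highest, 3.05) and Hopx (lowest, 6.52). All values of Mgat4c, Hoxd13 and Atoh1 in gastric adenomas, and of Nkx6-3 in large intestinal adenomas, lay at background, where an isolated sample says little. The median of the whole array was lowest in gastric adenoma 1, at 3.82.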

How the results depend on the processing

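No paired analysis was possible because the labels carry no pairing and the replicate numbers follow accession order. With 25 other settings, no called result reversed, while medians near 0, such as those of the cell cycle, epithelial and cytokine lists, changed sign in some settings. Genes called numbered between 1056 and 1633, against 1543, and between 1386 and 1581 with each sample left out in turn. Prom1 became called with all primary tumour groups in the fit (-3.92, adjusted p = 0.036 by limma), which shares the spread of other tumours. With each sample left out in turn Prom1 lay between -5.18 and -3.05, and it was called only without gastric adenoma 3 (-5.12, adjusted p = 0.033). Genes whose groups do not overlap numbered 2940 with only the 3 gastric adenomas of lowest title number, against 785 and 903 with all 7, since fewer samples have to be separated. Of 141 called genes described, 52 lost their call in at least 1 setting, most often Pou2af1, Foxa2 and Vwf. Calls lost with a single sample left out are given beside the genes. Conversely, some genes not called with all 12 samples were called with 1 left out: Krt5 without large intestinal adenoma 1 or gastric adenoma 6 (adjusted p between 0.04 and 0.043), Epcam without large intestinal adenoma 5 or gastric adenoma 1 or 6 (adjusted p between 0.00038 and 0.0026), Wnt5a without large intestinal adenoma 5 or gastric adenoma 6 (adjusted p between 0.016 and 0.036), Jchain without gastric adenoma 2 or 3 (adjusted p between 0.04 and 0.046), Apoa4 without large intestinal adenoma 5 or gastric adenoma 4 (adjusted p between 0.022 and 0.036), Mmp7 without large intestinal adenoma 2 (adjusted p = 0.0051), Reg3g without large intestinal adenoma 2 (adjusted p = 0.015), Hoxc9 without large intestinal adenoma 5 (adjusted p = 0.0039), Smoc2 without large intestinal adenoma 5 (adjusted p = 0.0026), Bcl2l15 without large intestinal adenoma 2 or 5 (adjusted p between 0.014 and 0.017) and Chia1 without gastric adenoma 2, 5 or 6 (adjusted p between 0.047 and 0.05). With large intestinal adenoma 1 and gastric adenoma 4 both left out, list counts not given above changed as follows. Those of stomach factors became 1 higher and 10 lower, chief and neck cell genes 0 and 6, hormone genes 5 and 5, squamous genes 1 and 4, and goblet cell genes 7 and 2. Those of claudins became 6 higher and 1 lower, mucin glycosyltransferases 3 and 1, fibroblast genes 7 and 0, drug metabolism genes 7 and 6, and the fetal-like and YAP list 0 and 3. The cause was not tested. The number of arrays and the background level of the dim group limit what can be measured.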

Other observations

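Genes of secreted plasma proteins were among those called. Of 7 tested hepatocyte genes 3 rose, the haptoglobin gene Hp, Serpina1a and Apoh, and Mup3 fell, with a median difference of 1.5. With large intestinal adenoma 1 and gastric adenoma 4 left out, Serpina1a and Apoh were not called. Of 17 tested cytokines and chemokines 2 rose, Ccl25, a chemokine of gut epithelium, and Cxcl14, and 2 fell, the interleukin genes Il33 and Il1a (median 0.02). With the same samples left out Cxcl14 was not called and Cxcl5 was called lower. Of 8 tested interferon response genes Irf7 rose and Oas2 fell (median -0.67), and neither was called with those samples left out.

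Imprinted and fetal genes had 5 tested members, of which Afp, the gene of alpha-fetoprotein, and Peg3 fell and none rose. Of 3 tested skeletal muscle genes Acta1 rose and Tnni2 fell. No member was called, or had an unadjusted p under 0.05, among 3 erythroid, 2 enteric neuron and glia and 1 adipocyte genes tested, and none of 4 sex-linked genes was called in limma. Over all 10918 tested genes 4604 had an unadjusted p under 0.05 in limma.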
